A study of Mus musculus with 10 samples.

Results

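The transcripts of 10 genes that encode immune checkpoint ligands and galectins were measured in 2 mouse tumour cell lines kept with interferon gamma (IFNγ). The 10 genes were taken by symbol: Cd274, Pdcd1lg2, Cd276, Cd47, Pvr, Nectin2, Vsir, Lgals1, Lgals3 and Lgals9. All 10 were found, each as 1 row, among the 60676 genes and loci of the count table. MC38 is a line of colon adenocarcinoma and B16 one of melanoma, and all 10 libraries carried a knockdown of Sdc1, the gene of the cell-surface proteoglycan syndecan-1. In MC38, 1 group had the knockdown only, 1 had the knockdown with a mutant called c30 and 1 had the knockdown with a mutant called ect. In B16, 1 group had the knockdown only and the other had wild-type Sdc1 added to the knockdown. Each of the 5 groups had 2 libraries, and every culture was given 10 ng/ml IFNγ for 24 h. The labels name c30 and ect only as mutants, and give neither the number of clones nor a control for the vectors. No library without the knockdown or without IFNγ was analysed here, so neither the effect of the knockdown nor that of IFNγ can be read from these values.

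Checkpoint ligands are surface proteins through which a cell restrains the leukocytes that touch it. Cd274 encodes PD-L1 and Pdcd1lg2 encodes PD-L2, which bind the receptor PD-1 on T cells, and IFNγ is a well-known inducer of PD-L1 through JAK and STAT signalling and the factor IRF1. Cd276 (B7-H3) and Vsir (VISTA) belong to the same B7-related family, Cd47 signals to SIRPα on macrophages to hold back phagocytosis, and Pvr and Nectin2 encode ligands of TIGIT and CD226 on T and NK cells. Galectins are secreted lectins that bind β-galactoside sugars on glycoproteins: Lgals1 and Lgals3 encode galectin-1 and galectin-3, and Lgals9 encodes galectin-9, which is described as a ligand of TIM-3.

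The bases before the start sites of 3 of these genes are shown because Cd274 and Lgals9 were the members that stood higher in B16 in every library and Lgals3 was the member that differed most between the lines. The RefSeq promoter table of build GRCm38.p6 held 8 of the 10 genes, not Pvr or Lgals1. Each line gives the 250 bases before the start, 5′ to 3′ on the strand of the gene, and capitals mark a match to the ISRE core, the element bound by interferon-regulated factors.
Cd274, chr19:29367188-29367437, plus strand: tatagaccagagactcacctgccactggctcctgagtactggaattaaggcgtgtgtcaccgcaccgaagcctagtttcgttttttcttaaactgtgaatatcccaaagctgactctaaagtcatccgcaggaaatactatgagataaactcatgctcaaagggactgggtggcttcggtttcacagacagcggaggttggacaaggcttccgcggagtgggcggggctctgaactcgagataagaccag
Lgals9, chr11:78984925-78985174, minus strand: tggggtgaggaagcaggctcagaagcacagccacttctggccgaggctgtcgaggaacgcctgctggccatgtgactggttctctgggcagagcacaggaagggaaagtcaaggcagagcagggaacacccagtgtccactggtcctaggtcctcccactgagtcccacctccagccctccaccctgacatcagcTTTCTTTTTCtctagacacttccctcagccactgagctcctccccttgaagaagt
Lgals3, chr14:47373610-47373859, plus strand: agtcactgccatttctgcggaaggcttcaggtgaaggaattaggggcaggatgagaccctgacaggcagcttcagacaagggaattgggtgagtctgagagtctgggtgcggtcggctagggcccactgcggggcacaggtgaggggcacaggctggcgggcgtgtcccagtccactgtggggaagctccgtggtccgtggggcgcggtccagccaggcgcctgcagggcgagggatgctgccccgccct

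Windows of 300 bases, these 250 and the 50 that follow, were searched on both strands for the ISRE core (GAAA, then 2 bases of any kind, then GAAA) and CACGTG (E-box). These motifs were found in 3.44% and 7.15% of all 32851 windows of the table. Lgals9 held 2 ISRE core matches, both on the reverse strand, at bases -55 to -46 and 16 to 25 from the start, and 0.225% of all windows held 2 or more. The windows of the other 7 genes, Cd274 among them, held neither motif, which says only that these letters are not in those windows. The starts of Cd274 and Pdcd1lg2 lie 43.5 kb apart on chromosome 19.

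Total counts ranged from 11349447 to 15041133 per library, and levels of single libraries are given as CPM, counts per 1000000 counts of the library. The 20 leukocyte markers summed to 7.82 to 8.71 CPM in MC38 and 7.66 to 9.66 CPM in B16. Of these 20, only Cd68 reached 1 CPM, and Cd3e, Cd3d, Cd8a, Ms4a1 and Ncr1 were at 0 counts in all 10 libraries. The 11 pigment markers summed to 13778 to 14604 CPM in B16 and 7.23 to 13.8 CPM in MC38. The 15 epithelial and colon markers summed to 11.8 to 19.2 CPM in MC38 and 4.95 to 6.01 CPM in B16, with at most 3 of them at 1 CPM or above in a library. Of these, Cdh1 gave the largest part of the MC38 sum. It was at 13.7 to 13.9 CPM in the knockdown, 7.31 to 9.25 CPM in c30 and 5.53 to 6.85 CPM in ect, against at most 0.871 CPM in B16. Muc2 had 14 to 30 counts in the MC38 libraries and 14 to 18 in those of B16, while Epcam had at most 8 counts and Cdx2 at most 2 in any library. Sdc1 was at 24.5 and 29.99 CPM in MC38 knockdown, 97.0 and 99.5 CPM in MC38 c30 and 22.4 and 25.2 CPM in MC38 ect. In B16 it was at 40.7 and 43.1 CPM in the knockdown and 71.1 and 56.9 CPM with wild-type Sdc1. The ect libraries therefore overlapped the knockdown libraries in Sdc1, and these counts do not check that label if the part counted differs from the part expressed. Whether the 2 libraries of a group are separate cultures is not in the labels; the p-values rest on the spread between these libraries, and that spread may be technical.

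Per kilobase of exon, which allows genes to be compared, Lgals1 was the most abundant member in both lines by a wide margin. Its mean was 2300 CPM per kb in MC38, rank 3 of the 26858 genes with a symbol, exon length and any count. In B16 its mean was 1239 CPM per kb, rank 10 of 24076 such genes. In MC38 it was followed by Lgals3 at 391 CPM per kb (rank 59), Lgals9 at 21.1, Cd47 at 18.03, Pvr at 17.9, Cd274 at 6.76, Nectin2 at 4.62 and Cd276 at 2.18 CPM per kb. The ranges of Lgals9, Cd47 and Pvr overlapped over the 6 MC38 libraries (18.6 to 22.8, 16.9 to 19.05 and 15.8 to 19.4 CPM per kb), so their order is not resolved, and the other neighbours did not overlap. In B16 the order after Lgals1 was Lgals9 at 69.5, Cd274 at 37.8, Cd47 at 18.1, Pvr at 9.89, Nectin2 at 5.67, Cd276 at 2.76 and Lgals3 at 0.847 CPM per kb. Neighbours in that B16 order did not overlap over the 4 libraries. Vsir and Pdcd1lg2 stood below all of these in both lines.

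**Figure D1:**
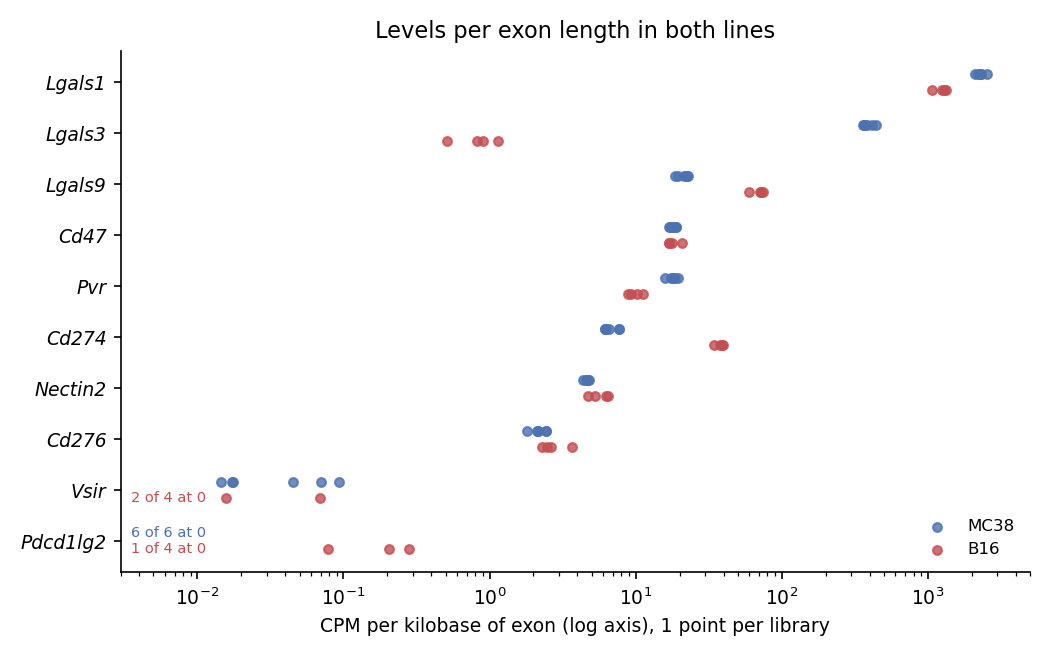
Level per exon length of the 10 genes on a log axis (CPM per kilobase), 1 point per library, for 6 MC38 and 4 B16 libraries; libraries at 0 are written out at the left. Lgals1 lies above 1000 CPM per kb in every library, and Lgals3 lies near 391 CPM per kb in MC38 and below 2 CPM per kb in B16.

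PD-L1 was the tested checkpoint ligand with the largest difference between the lines. Cd274 stood at 22.7 and 23.7 CPM in MC38 knockdown, 22.4 and 22.4 CPM in MC38 c30 and 27.8 and 27.9 CPM in MC38 ect. It stood at 140.8 and 144.3 CPM in B16 knockdown and at 123.8 and 138.0 CPM with wild-type Sdc1. The lowest B16 library was thus far above the highest MC38 library, and within MC38 the ect libraries lay above the other 4. In the edgeR quasi-likelihood test, Cd274 was 6.31-fold higher in B16 knockdown than in MC38 knockdown (log2 difference 2.66, SE 0.0874, Benjamini-Hochberg adjusted p = 1.9e-20). In bulk RNA, fewer cells that carry a transcript and less transcript per cell cannot be told apart.

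Among the MC38 groups the differences of Cd274 did not pass the test. The ect group was 0.27 higher than the knockdown on the log2 scale (SE 0.11, 95% interval 0.06 to 0.49, edgeR adjusted p = 0.115). The c30 group was 0.05 lower than the knockdown (SE 0.11, interval -0.28 to 0.18, edgeR adjusted p = 0.875). Set against each other, c30 was 0.32 below ect (SE 0.11, interval -0.55 to -0.10, edgeR adjusted p = 0.274, unadjusted p = 0.00504). In B16, Cd274 with wild-type Sdc1 was 0.10 lower than in the knockdown (SE 0.09, interval -0.29 to 0.10, edgeR adjusted p = 0.943).

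A noncoding gene, AC119228.1, overlaps exons of Cd274 on the opposite strand, and no source used here gives the strand setting of the counting. Reads of the pair can therefore not be told apart with certainty. AC119228.1 had 2.87 to 5.12 CPM in MC38 and 22.6 to 28.6 CPM in B16. That was 12.8% to 18.5% of the Cd274 count in MC38 and 17.0% to 20.7% in B16, so it stood higher in the same line as Cd274.

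The second PD-1 ligand was nearly silent. Pdcd1lg2 had 0 counts in all 6 MC38 libraries, which allows up to 0.0393 CPM over the pooled line (3 counts). In B16 it had 2 and 0 counts in the knockdown and 7 and 5 counts with wild-type Sdc1, or 0.281 CPM over the 4 libraries (exact Poisson 95% interval 0.154 to 0.472). The B16 counts thus came mostly from the wild-type libraries, and no fold between the lines is given. Vsir, which encodes VISTA, had 1 to 7 counts in the MC38 libraries and 0 to 4 in the B16 libraries. The pooled level of Vsir was 0.223 CPM in MC38 (0.130 to 0.357) and 0.101 CPM in B16 (0.0326 to 0.235), and these intervals overlap. Such intervals cover counting error only. Both genes fell under the filter on low counts, so 8 of the 10 members were tested and no test is given for these.

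Cd276, the gene of B7-H3, was low and similar in both lines. It was at 7.84 and 8.97 CPM in MC38 knockdown, 7.84 and 7.75 CPM in c30 and 6.59 and 8.84 CPM in ect. In B16 it was at 9.09 and 8.36 CPM in the knockdown and 13.4 and 9.58 CPM with wild-type Sdc1. The wild-type libraries lay apart from each other but both above the B16 knockdown libraries, and the 2 lines overlapped. The B16 groups differed by 0.42 on the log2 scale (SE 0.21, interval -0.03 to 0.87, edgeR adjusted p = 0.891). The knockdown groups of the lines differed by 0.10 (SE 0.20, interval -0.32 to 0.51, edgeR adjusted p = 0.682), and by 0.42 once gene length and GC content were corrected for (edgeR adjusted p = 0.0451).

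Cd47, the ligand that restrains phagocytosis, was at a like level in all 5 groups. It was at 119.6 and 112.3 CPM in MC38 knockdown, 115.0 and 105.8 CPM in c30, 118.9 and 107.2 CPM in ect, 106.9 and 110.9 CPM in B16 knockdown and 105.7 and 129.9 CPM in B16 with wild-type Sdc1. Every MC38 library lay within the range of the B16 libraries. The knockdown groups of the lines differed by -0.05 on the log2 scale (SE 0.08, interval -0.22 to 0.12, edgeR adjusted p = 0.610). The other Cd47 differences were -0.07 for c30, -0.03 for ect and 0.14 for wild-type Sdc1, each against its own knockdown, and none passed the test.

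The TIGIT ligands differed from each other in how the lines compared. Pvr was at 110.0 and 118.9 CPM in MC38 knockdown, 110.0 and 96.9 CPM in c30 and 114.0 and 107.8 CPM in ect. In B16 it was at 62.3 and 68.9 CPM in the knockdown and 56.9 and 54.1 CPM with wild-type Sdc1, below all MC38 libraries. Pvr was 1.70-fold lower in B16 knockdown than in MC38 knockdown (log2 difference -0.76, SE 0.08, edgeR adjusted p = 2.38e-09). With wild-type Sdc1 in B16 it was 0.21 lower than in the knockdown (SE 0.10, interval -0.43 to 0.01, edgeR adjusted p = 0.891), and in c30 it was 0.14 lower than in MC38 knockdown (SE 0.06, edgeR adjusted p = 0.150).

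Nectin2 stood below Pvr per kilobase of exon in both lines. It was at 16.3 and 16.8 CPM in MC38 knockdown, 15.2 and 16.02 CPM in c30, 16.4 and 16.2 CPM in ect, 18.3 and 22.5 CPM in B16 knockdown and 21.9 and 16.6 CPM with wild-type Sdc1. The lines overlapped in 1 B16 library. The knockdown groups differed by 0.34 on the log2 scale (SE 0.15, edgeR adjusted p = 0.0446), a call that was lost under 8 of 12 alternatives, with an adjusted p of 0.343 without B16 knockdown replicate 2.

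Galectin-1 and galectin-3 carried the differences within MC38 that passed the test, and these were small. Lgals3 was at 819 and 770 CPM in MC38 knockdown, 715 and 696 CPM in c30 and 676 and 680 CPM in ect. Both mutants lay below the knockdown libraries without overlap. Lgals3 was lower by a factor of 1.12 in c30 (log2 difference -0.17, SE 0.04, edgeR adjusted p = 0.00315) and of 1.16 in ect (log2 difference -0.22, SE 0.04, edgeR adjusted p = 5.89e-05). The epithelial marker sum also stood lower in the mutants, at 18.9 to 19.2 CPM in the knockdown, 12.4 to 16.5 CPM in c30 and 11.8 to 13.1 CPM in ect. Its largest part, Cdh1, was at 13.7 to 13.9, 7.31 to 9.25 and 5.53 to 6.85 CPM in these groups. Of the 4 epithelial markers tested, 1 was called lower in each mutant. The log2 difference was positive for 3 of the 4 in c30 and for 2 in ect. The part of these markers in the galectin values was not tested. The c30 call was lost without c30 replicate 1 (adjusted p = 0.0685) and without c30 replicate 2 (adjusted p = 0.105). Both calls were lost in a fit of all 10 libraries (adjusted p = 0.245 for c30 and 0.0911 for ect).

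Lgals1 was at 2295 and 2106 CPM in MC38 knockdown, 2079 and 1917 CPM in c30 and 2068 and 1998 CPM in ect. All 4 mutant libraries lay below the lower knockdown library. Lgals1 was lower by a factor of 1.10 in c30 (log2 difference -0.14, SE 0.04, edgeR adjusted p = 0.0156). The difference in ect did not pass the test (log2 difference -0.10, SE 0.04, edgeR adjusted p = 0.0857). The c30 call was lost without MC38 knockdown replicate 1 (adjusted p = 0.239) and without c30 replicate 2 (adjusted p = 0.416), with DESeq2 (adjusted p = 0.315) and in a fit of all 10 libraries (adjusted p = 0.486). The ect difference was called without MC38 knockdown replicate 2 (adjusted p = 0.000336) and with the correction for length and GC content (adjusted p = 5.45e-05).

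Lgals9 was at 47.8 and 48.7 CPM in MC38 knockdown, 39.8 and 45.6 CPM in c30 and 42.0 and 47.1 CPM in ect. The knockdown libraries were again the highest. The log2 differences were -0.17 for c30 (SE 0.09, edgeR adjusted p = 0.279) and -0.10 for ect (SE 0.09, edgeR adjusted p = 0.585), and neither passed the test.

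**Figure D2:**
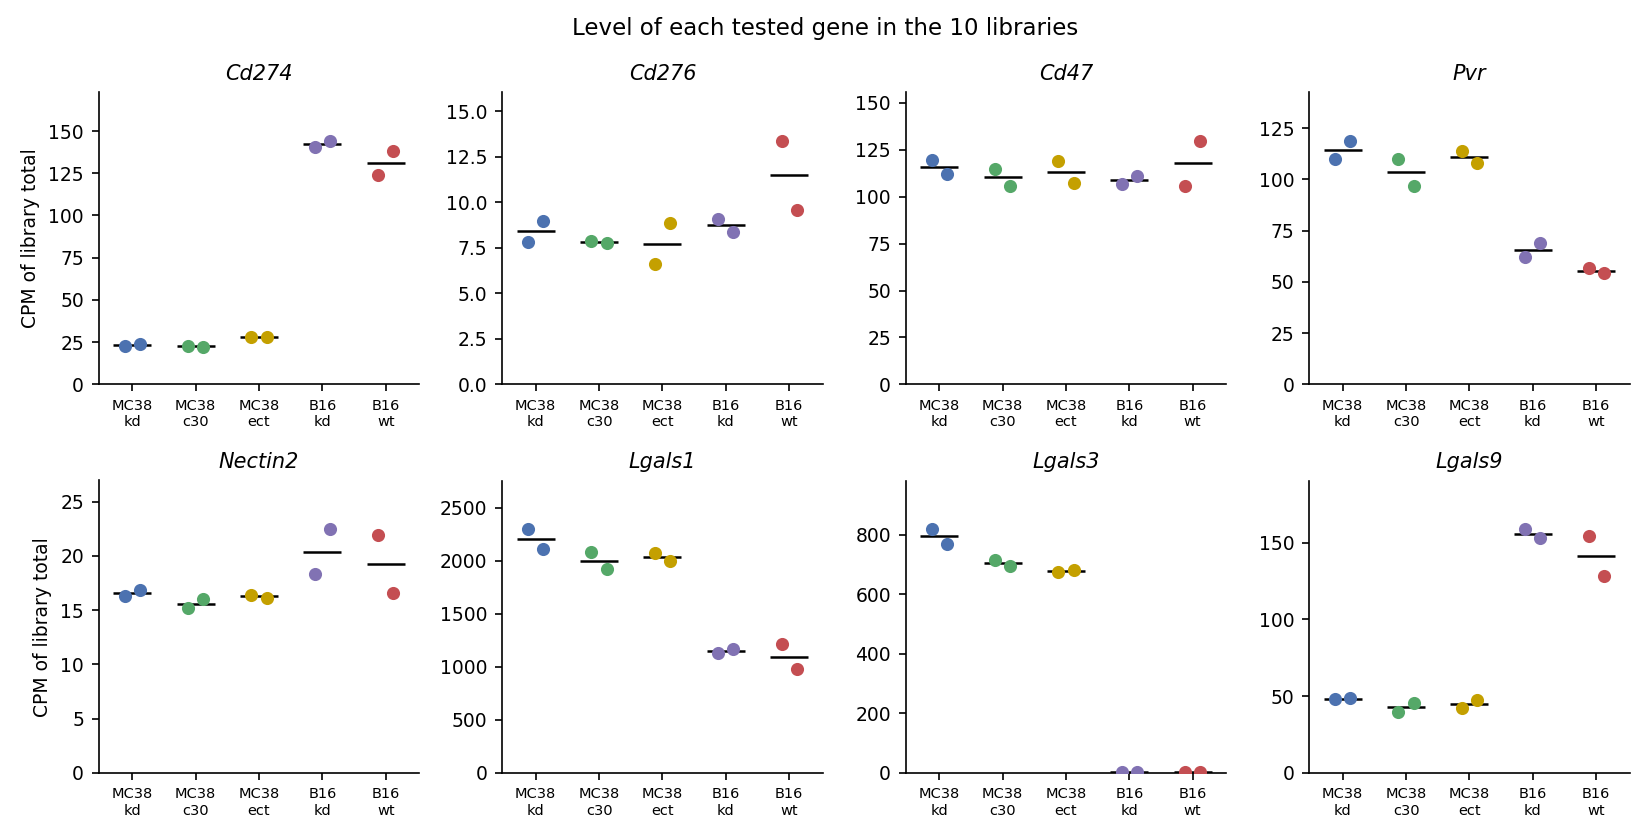
Level of the 8 tested genes in each of the 10 libraries (CPM of the library total, linear axes from 0); points are libraries and bars are group means of 2. Cd274 and Lgals9 are high in B16, Lgals1, Lgals3 and Pvr are high in MC38, and Cd276, Cd47 and Nectin2 overlap between the lines.

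In c30 against the knockdown, 2 of the 8 tested members were called, both lower, where 7.75% of all 15031 tested genes were called and 4.45% were called lower. The median log2 difference of the 8 members was -0.12, against 0.00 for all genes, and the sign was negative for all 8. The 2 c30 libraries lay below both knockdown libraries for 5 of the 8 members and overlapped them for 3, where 47.8% of all genes did not overlap and 24.8% lay lower. In ect against the knockdown, 1 of 8 was called, lower, where 8.16% of all genes were called and 4.61% were called lower, and the median of the members was -0.07. The ect libraries lay below the knockdown libraries for 3 members (25.9% of all genes) and above them for 1, Cd274 (22.5% of all genes), where 48.4% of all genes did not overlap. Both comparisons use the same knockdown libraries, so their values for a gene are not independent of each other. In c30 against ect, 0 of 8 members were called by edgeR, DESeq2 or limma-voom, where edgeR called 0.299% of all genes, and 1 member, Cd274, had an unadjusted p under 0.05 in edgeR.

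In B16, the galectin levels with wild-type Sdc1 were not separated from the knockdown by the test. Nor was Sdc1, the gene put back (log2 difference 0.64, edgeR adjusted p = 0.269). A difference that was not called here is therefore not shown to be absent. Lgals1 was at 1125 and 1168 CPM in the knockdown and 1211 and 973 CPM with wild-type Sdc1. Lgals9 was at 158.8 and 153.0 CPM in the knockdown and 154.1 and 128.0 CPM with wild-type Sdc1. For both, the wild-type libraries lay far apart, and replicate 2 was the lowest B16 library. Lgals3 had 20 and 11 counts in the knockdown and 27 and 21 with wild-type Sdc1 (log2 difference 0.63, SE 0.42, interval -0.31 to 1.56, edgeR adjusted p = 0.908). By edgeR, DESeq2 and limma-voom, 0 of 8 members were called and edgeR called 0% of the 14336 tested genes, with 0 members at an unadjusted p under 0.05. Without wild-type replicate 1, edgeR called 3 members (Cd47 higher by 0.29 on the log2 scale, Lgals1 by -0.20 and Lgals9 by -0.25) and 1295 genes. Without wild-type replicate 2, it called 0 members and 326 genes.

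The difference between the wild-type effect in B16 and the c30 effect in MC38 was tested as an interaction over all 10 libraries. By edgeR, DESeq2 and limma-voom, 0 of 8 members were called, where edgeR called 0.284% of all genes, and 1 member had an unadjusted p under 0.05 in edgeR. That member was Lgals3, with a difference of 0.79 between the log2 effects (SE 0.27, interval 0.23 to 1.34, edgeR adjusted p = 0.346). The form of Sdc1 differed as well as the line, so these cannot be told apart. Leaving out 1 library moved the difference between the log2 effects from 0.055 to 0.35 for Cd47 and from -0.076 to 0.25 for Lgals1.

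**Figure D3:**
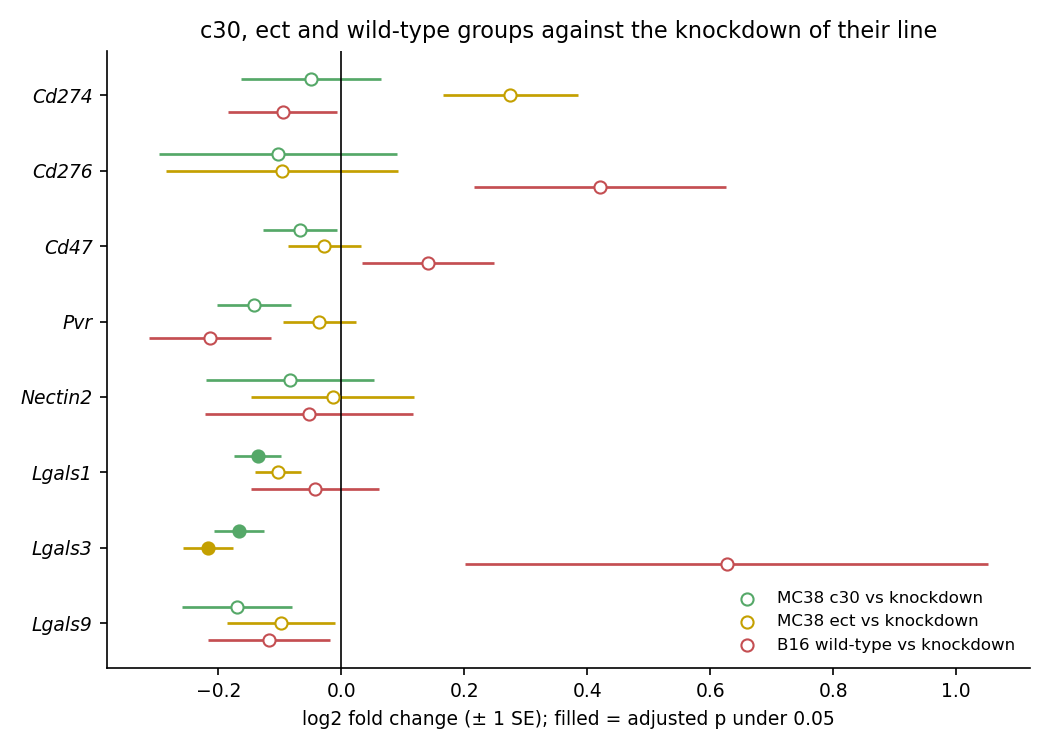
Log2 fold change of the 8 tested genes in the c30, ect and wild-type groups, each against the knockdown of its own line; bars are 1 SE and filled points have an adjusted p under 0.05. The filled points are Lgals1 and Lgals3 in c30 and Lgals3 in ect, all between -0.22 and -0.14.

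Between the lines, the largest difference of any member was that of galectin-3. Lgals3 ranged from 676 to 819 CPM over the 6 MC38 libraries and from 0.957 to 2.14 CPM (11 to 27 counts) over the 4 B16 libraries. It was 608-fold lower in B16 knockdown than in MC38 knockdown (log2 difference -9.25, SE 0.21, edgeR adjusted p = 6.63e-29), and 1.01% of the 16877 tested genes had a lower log2 difference. Lgals1 ranged from 1917 to 2295 CPM in MC38 and from 973 to 1211 CPM in B16, and was 1.87-fold lower in B16 knockdown (log2 difference -0.90, SE 0.08, edgeR adjusted p = 1.12e-10). Lgals9 went the other way, with 39.8 to 48.7 CPM in MC38 and 128.0 to 158.8 CPM in B16, and was 3.33-fold higher in B16 knockdown (log2 difference 1.73, SE 0.09, edgeR adjusted p = 1.14e-15).

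The make-up of the galectins differed accordingly. Per kilobase, Lgals1, Lgals3 and Lgals9 summed to 2519 to 3005 CPM per kb in MC38 and 1139 to 1414 CPM per kb in B16. Lgals1 was 84.2% to 85.7% of that sum in MC38 and 94.3% to 94.8% in B16. Lgals3 was 13.6% to 14.96% in MC38 and 0.0377% to 0.0813% in B16, and Lgals9 was 0.689% to 0.848% in MC38 and 5.10% to 5.63% in B16. None of these 3 shares overlapped between the lines.

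Of the 8 tested members, 3 were called higher and 3 lower in B16 knockdown than in MC38 knockdown, where 68.2% of all genes were called, 33.8% higher and 34.3% lower. Over all libraries, the 4 of B16 and the 6 of MC38 did not overlap for 5 of the 8 (Cd274 and Lgals9 higher in B16, and Pvr, Lgals1 and Lgals3 lower), where 65.8% of all genes did not overlap, with 30.5% higher and 35.3% lower in B16. These shares are near the background, and 39.8% of all genes differed at least 2-fold between the lines. The log2 difference of Cd274 exceeded that of 90.4% of tested genes and that of Lgals9 exceeded 87.5%. The line and any difference in how the lines were grown or prepared cannot be told apart.

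**Figure D4:**
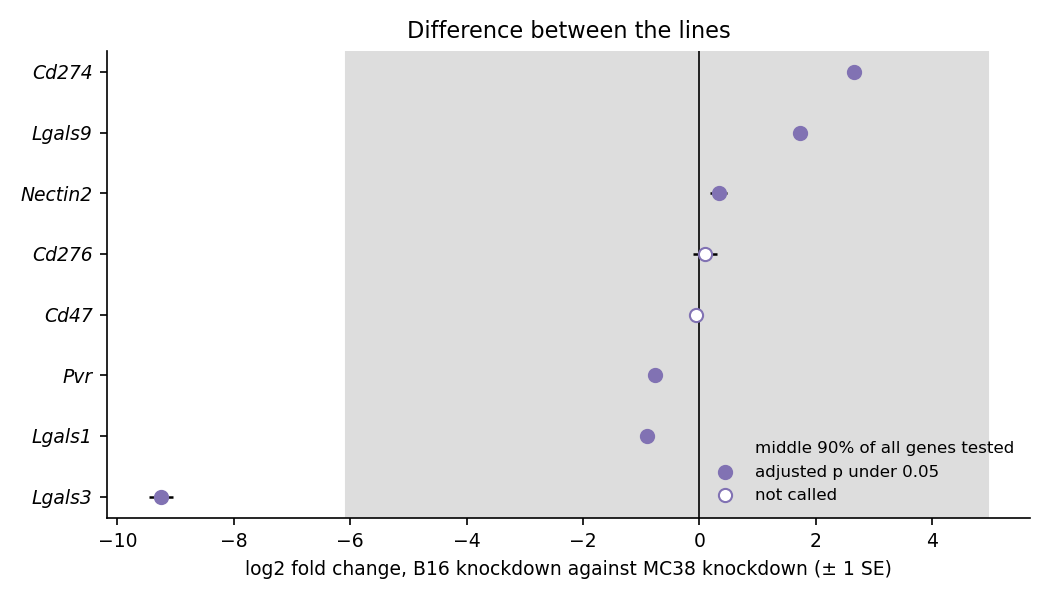
Log2 fold change of the 8 tested genes, B16 knockdown against MC38 knockdown; bars are 1 SE, filled points have an adjusted p under 0.05 and the grey band holds the middle 90% of all tested genes. Lgals3 lies at -9.25, Cd274 at 2.66 and Lgals9 at 1.73.

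Of 35 genes described in the literature as regulators of PD-L1 or CD47, all were tested in MC38. In c30 against the knockdown, 3 fell and 0 rose, where 7.75% of all genes were called, a share near that of the list. These were B3gnt3, a glycosyltransferase described as acting on PD-L1 (log2 -0.29, edgeR adjusted p = 0.000136), Stat2 (-0.29, 0.000161) and Irf1 (-0.17, 0.00538), both of which transmit interferon signals. In ect, 3 rose and 3 fell, where 8.16% of all genes were called. Socs1, a feedback inhibitor of JAK signalling, went from 17.3 to 19.6 CPM in the knockdown libraries to 23.8 to 30.3 CPM in ect (log2 0.58, edgeR adjusted p = 0.000348). Cops5 rose by 0.20, and B3gnt3 and Hif1a fell by 0.27 and by 0.20 on the log2 scale. Stat2 fell in ect too (log2 -0.19, edgeR adjusted p = 0.0202). Socs1 was 0.36 higher in c30 than in the knockdown, which did not pass the test (edgeR adjusted p = 0.0564). Between the lines, 12 of the 35 were called higher and 12 lower in B16, close to the shares of all genes (33.8% higher and 34.3% lower). Stat2 (log2 1.79) and Stat3 (1.62) were higher, and B3gnt3 (-3.01) and Hip1r (-2.83), the gene of an endocytic adaptor described as directing PD-L1 to lysosomes, were lower.

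Of 17 other galectins and galectin ligands, 13 were tested in MC38. In c30, Lamp2 and Lgalsl fell by 0.19 and by 0.35 on the log2 scale, and in ect Lamp1 and Lamp2, the lysosomal glycoproteins, each fell by 0.21, with 0 that rose in either, where 4.45% of all genes were called lower in c30 and 4.61% in ect. Between the lines, 9 of 14 tested were higher and 2 lower in B16, where 33.8% of all genes were higher and 34.3% lower. Lgals3bp, the gene of a secreted glycoprotein that binds galectin-3, was at 72.5 to 81.8 CPM in MC38 and 1060 to 1340 CPM in B16 (log2 4.05, SE 0.07, edgeR adjusted p = 1.7e-25). Lgals3 was low in B16, and a link between these levels was not tested. Mgat5 (log2 2.69), Mgat4b (1.72) and Mgat4a (1.78), enzymes that build the branched N-glycans on which galectins bind, were also higher in B16. Mgat1 and B4galt1 of the same list went the other way. Mgat1 was at 79.4 to 80.4 CPM in MC38 knockdown and 58.2 to 64.5 CPM in B16 knockdown. B4galt1 was at 59.2 to 61.8 CPM in MC38 knockdown and 39.9 to 43.2 CPM in B16 knockdown.

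Of 7 nectins and nectin-like genes, 3 were tested in MC38. In c30 and in ect against the knockdown 0 of these were called by edgeR, where 7.75% and 8.16% of all genes were called. None had an unadjusted p under 0.05, and with 3 genes tested this does not set the list apart from those shares. Between the lines, where 68.2% of all genes were called, 4 were tested: Cadm1 (log2 11.08) and Cadm4 (4.42), nectin-like adhesion molecules, were higher in B16 and Nectin1 (-7.25) was lower. Cadm1 was at 391 to 426 CPM in B16 and had 1 to 4 counts in each MC38 library. Of 14 other B7 and TNF family ligands, 3 were tested in MC38, again with 0 called by edgeR and 0 at an unadjusted p under 0.05 in c30 and in ect. The shares of all genes called were the same 7.75% and 8.16%. Between the lines, against the same 68.2%, 1 of 4 was higher and 1, Tnfsf9, was lower (log2 -0.80, edgeR adjusted p = 0.00281).

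Of 16 other inhibitory molecules of tumour cells, 9 were tested in MC38. H2-T23, which encodes Qa-1, the mouse ligand of the NKG2A receptor, fell by 0.47 in c30 (edgeR adjusted p = 8.19e-06) and by 0.40 in ect (edgeR adjusted p = 0.00011), and Ceacam1, an inhibitory adhesion molecule, fell by 0.45 in ect. The others did not pass the test. Thus 1 of 9 was called lower in c30 and 2 of 9 in ect, where 4.45% and 4.61% of all genes were called lower. Between the lines, 3 of 10 were higher and 6 lower in B16, where 33.8% of all genes were higher and 34.3% lower. Among them were Alcam (log2 4.25), Sirpa (1.22), which encodes the receptor of CD47, and Tgfb1 (-4.05).

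Of 15 genes listed as counter-receptors on leukocytes, 4 were tested in MC38, although the leukocyte markers were near 0. In c30 1 of these 4 was called and in ect 2, all higher, where 7.75% and 8.16% of all genes were called. Tigit, the receptor of Pvr and Nectin2, was at 15.4 to 16.6 CPM in MC38 knockdown, 23.9 to 26.1 CPM in c30 and 22.05 to 22.7 CPM in ect, with 0 to 4 counts in the B16 libraries. It rose by 0.65 in c30 (SE 0.12, edgeR adjusted p = 8.07e-05) and by 0.50 in ect (SE 0.12, edgeR adjusted p = 0.00287). Igsf11, kept in this list but described as a VISTA ligand, rose by 1.37 in ect from a mean of 1.03 to 2.70 CPM. That rested on 13 to 15 counts in the knockdown libraries and 33 to 37 in those of ect. In c30 Igsf11 was 1.08 higher than in the knockdown on the log2 scale, which did not pass the test (edgeR adjusted p = 0.121). It was at 10.7 to 12.8 CPM in the B16 libraries. In c30 against ect and in B16 with wild-type Sdc1, edgeR called 0 genes of these 6 lists, where it called 0.299% and 0% of all genes. In these comparisons 0 to 3 genes of a list had an unadjusted p under 0.05.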

How the data were processed

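Messenger RNA libraries of 10 samples were sequenced from both ends. The deposited values are raw counts per gene. The submitters' processing notes name HISAT2 2.0.5, featureCounts, HTSeq, Trimmomatic, DESeq2 and build GRCm39, with no order or strand setting. Symbols were matched by Ensembl identifier for 51884 of 60676 rows; 3496 rows are loci named XLOC.

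The test was the 2-sided robust quasi-likelihood test of edgeR 4.0.16 (R 4.3.3) after filterByExpr and TMM, with Benjamini-Hochberg adjustment over all tested genes. A gene was called when its adjusted p was under 0.05. The 6 MC38 libraries were fitted together, the 4 of B16 on their own, and the comparison of the lines and the interaction used all 10. Standard errors came from the fitted model, and 95% intervals are t intervals. Means in the tests use TMM library sizes, and single libraries use library totals. Exon lengths are the union of exons in a GRCm38 annotation. Limits for a count of 0 use 3 counts. Fits were tested on simulated counts.

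Alternatives were RLE size factors, other filters, DESeq2 1.42.0, limma-voom (limma 3.58.1), a replicate block, a length and GC correction (mgcv 1.9.3), other sample sets and each library left out. The members, the 6 gene lists and the 3 marker lists were chosen with earlier results of these data known. All members are described, and up to 4 called genes per list and comparison, those with the smallest adjusted p, could be named. Some further list genes are given beside these as limits. A further motif that was searched is not reported here.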

Additional observations from a re-analysis of the deposited data

Results flagged for a closer look

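Sdc1, the gene knocked down and put back, was the value that stood out beyond the members. Its change with wild-type Sdc1 in B16 minus its change with c30 in MC38 was -1.22 on the log2 scale (SE 0.15, edgeR adjusted p = 0.000143), a difference between 2 lines that also carried different forms. Against its own knockdown, Sdc1 was 1.86 higher on the log2 scale in c30 (edgeR adjusted p = 6.18e-31) and 0.64 higher in B16 with wild-type Sdc1, which did not pass the test (edgeR adjusted p = 0.269). The part of this difference in the members' values was not tested.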

How the results depend on the processing

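Over 623 pairs of a member's comparison and an alternative, 568 kept their direction and side of the threshold, 16 lost a call, 8 gained one and 31 changed sign, all of them differences that were not called. Members called in c30 numbered 1 with DESeq2 (Lgals3), 0 in a fit of all 10 libraries and 0 to 2 with 1 library left out. In ect they numbered 2 with the length and GC correction, 0 in the fit of all 10 and 1 to 2 with 1 library left out. In B16 they ranged from 0 to 3, and in the interaction from 0 to 1, with 1 library left out. A group left with 1 library was assumed to vary like the others, and the causes were not tested.

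Genes called in c30 numbered 1165 and 519 with DESeq2, 254 with all 10 libraries (25.2% higher against 42.6%), and 464 and 485 without c30 replicate 1 or 2. In ect they numbered 1227 and 596 with DESeq2, 249 with all 10 (26.1% higher against 43.5%), and 776 to 984 with 1 library left out. In c30 against ect 45 genes were called, with 8 to 72 over the alternatives. In B16, 0 genes were called and 10 with DESeq2, with 791 at an unadjusted p under 0.05. In the interaction 48 genes were called, 75 with DESeq2, 13 with limma-voom and 234 with the length and GC correction.

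The libraries share replicate numbers only, with 2 numbers, so the replicate block rests on no stated pairing. With the replicate block, 1189 genes and 2 members were called in c30, 1252 and 1 in ect, 55 and 0 in c30 against ect, 15 and 0 in B16, 35 and 0 in the interaction, and 11373 and 5 between the lines (Nectin2 at an adjusted p of 0.0548). In B16 the differences between same-numbered libraries correlated at -0.17 over genes, and a crossed pairing, chosen after seeing the data, called 5 genes and 0 members.

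Sign changes outside the left-out libraries were Cd276 in c30 against ect (-0.01, but 0.000116 with DESeq2 and 0.00695 with the replicate block) and Nectin2 in B16 (0.041 with the length and GC correction). With 1 library left out, log2 differences ranged in ect from -0.33 to 0.073 (Cd276), -0.11 to 0.056 (Cd47), -0.094 to 0.016 (Pvr) and -0.037 to 0.0068 (Nectin2). In c30 against ect they ranged from -0.18 to 0.23 (Cd276), -0.13 to 0.043 (Cd47), -0.0797 to 0.013 (Lgals1) and -0.19 to 0.035 (Lgals9). In B16 they ranged from -0.025 to 0.29 (Cd47), -0.26 to 0.13 (Nectin2), -0.20 to 0.097 (Lgals1) and -0.25 to 0.00034 (Lgals9). Between the lines Cd276 ranged from -0.00049 to 0.21. In the interaction the ranges were -0.12 to 0.027 (Cd274), -0.15 to 0.0093 (Pvr), -0.18 to 0.22 (Nectin2), -0.076 to 0.25 (Lgals1) and -0.091 to 0.18 (Lgals9).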
